A study of Mus musculus with 9 samples.

Results

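This account compares 3 cell lines labelled as hepatic angiosarcoma of the mouse, called AS lines here, with 3 liver samples labelled wild-type, called WT livers. They are 6 of the 9 arrays of a study of Notch1 in the mouse liver, picked by their titles, and every one of the 19938 genes measured was tested. The 3 arrays not compared hold liver of Notch1 knockout mice. The WT livers came from mice with loxP-flanked Notch1 alleles (Notch1 lox/lox) and no Cre. The AS lines came from mice with the same alleles and MxCre (MxCre Notch1 lox/lox), whose Cre responds to interferon. All mice had a C57Bl/6 background, and all received 300 µg of polyinosinic-polycytidylic acid (poly(I:C)), a mimic of double-stranded RNA, at 4 weeks of age, with doses on days 0, 3 and 6, so the controls carry the floxed allele and the poly(I:C) as well. In MxCre mice this treatment removes the exon that encodes the signal peptide of Notch1. Per the labels, the lines grew from endothelial cells isolated from livers with a visible angiosarcoma, and long culture selected them by atypical growth until each population was uniform. The labels call the 3 arrays of each group biological replicates and do not say whether the lines came from 3 animals. The p-values set each difference against the spread between these samples, which may not be that between animals or tumours. Only the lines carried Cre, and cultured cells were set against an organ, so genotype, transformation, culture and the loss of all other liver cells cannot be told apart in this comparison. The extraction protocol, which is common to all arrays, names PHH without explaining it, so it is not settled if RNA of the entire organ or of some of its cells was hybridised.

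Angiosarcoma is a cancer of the cells that line blood vessels. Such cells are known by the adhesion molecules, growth factor receptors and transcription factors of endothelium, and the sinusoids of the liver have a specialised endothelium that clears waste from the blood. Hepatocytes make most plasma proteins, urea and bile acids. Cholangiocytes, the epithelial cells of the bile ducts, carry simple-epithelial keratins. Notch1 is a receptor through which neighbouring cells signal, and Notch signals guide endothelial differentiation.

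Values are log2 expression, so a difference of 1 is a doubling, and each difference is the mean of the 3 AS lines minus the mean of the 3 WT livers. Values of single arrays are given for replicates 1, 2 and 3 of a group, in that order, and where 3 values are set against 3 others the livers come first. Adjusted p-values are 2-sided, from limma with Benjamini-Hochberg adjustment over all genes. A gene is said to have risen or fallen only where its adjusted p was under 0.05. Unless a loss is stated, each gene so described kept its call and its direction in each of the 14 alternative analyses that tested it, 6 of which left out 1 array. With 3 against 3 arrays an exact permutation test of 1 gene cannot go below p = 0.1, so all calls rest on the model across genes. The array medians lay between 6.53 and 6.63. Correlations across genes ran from 0.947 to 0.966 between lines, 0.977 to 0.996 between WT livers and 0.809 to 0.853 between a line and a liver, and genes are not independent replicates. Precision is limited by the small number of arrays.

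The lines and livers differed in a large part of the transcriptome. Of 19938 genes, 5715 (28.7%) passed the threshold, 3506 (17.6%) higher and 2209 (11.1%) lower in the lines. Falls were larger than rises: the median was 1.06 among the genes that rose and -1.66 among those that fell. At least a doubling was seen for 1928 genes (9.67%) and at least a halving for 1564 (7.84%). A difference of at least 3 log2 units was reached by 116 genes that rose and 557 that fell, and one of at least 6 by 0 and 59. A further 746 genes differed by at least 2-fold without passing. Rises made up 61.3% of the calls, but 46.2% when the arrays were scaled to their 75th percentile, which moved all genes by -0.21. The median over all genes was 0.02 as deposited and -0.19 after that scaling, so the direction of small differences depends on the scale. The WT livers weighed on the number of calls: 3397 genes passed without WT liver 2 and 3556 without WT liver 3. The count of rises was 2302, 1931 and 2046 without WT liver 1, 2 or 3, and that of falls 1466 without WT liver 2. The lines varied more among themselves than the livers did, with a median SD of 0.194 against 0.125.

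**Figure D1:**
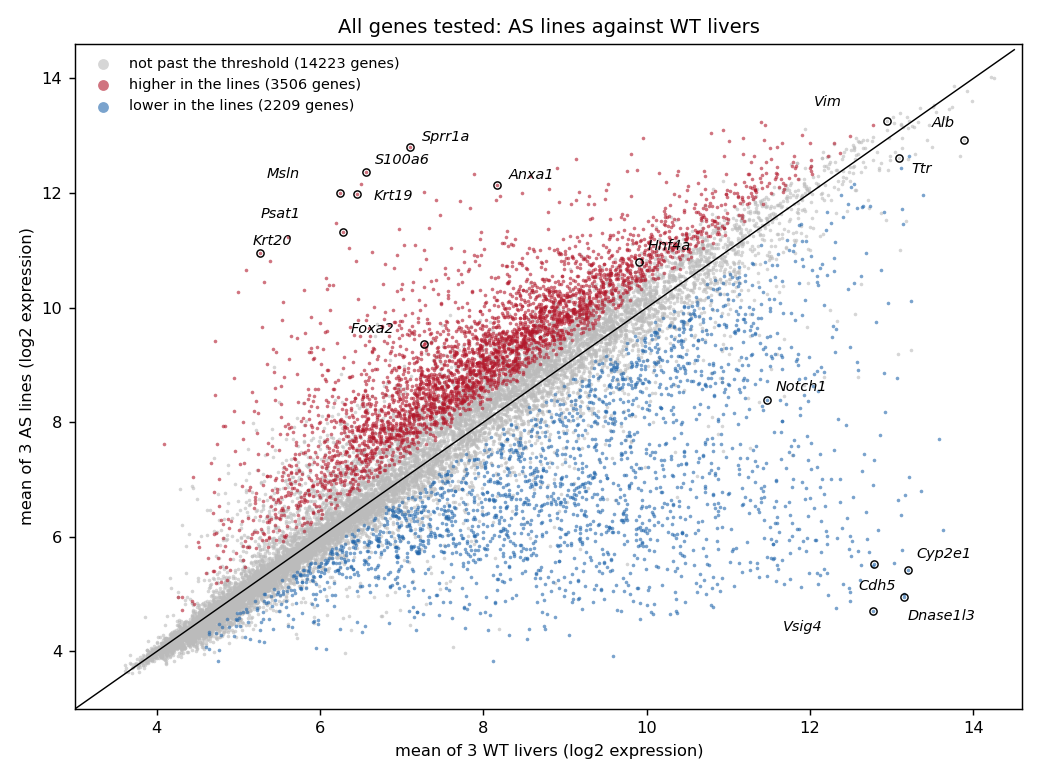
Each point is 1 of 19938 genes, with the mean log2 expression of the 3 WT livers on the x axis and of the 3 AS lines on the y axis. Red genes were higher and blue genes lower in the lines at an adjusted p under 0.05, grey genes did not pass, and the line marks equal values. Genes such as Dnase1l3 and Vsig4 lie far below the line in the right corner, keratins and Msln far above it on the left, and Alb and Ttr near it at the top.

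Notch1 was low in the lines. It measured 11.69, 11.02 and 11.71 in the WT livers and 8.75, 8.61 and 7.83 in the AS lines, so that all 3 lines lay below all 3 livers. The difference of -3.08 (SE 0.315, adjusted p = 0.00159) passed the threshold. The knockout livers, which share the deleted allele, stood at 7.84, 8.75 and 8.52. Where the probes lie relative to the deleted exon was not analysed here. Among 17 measured Notch receptors, ligands and modifying enzymes besides Notch1, 3 rose and 8 fell (median -0.14), against 17.6% and 11.1% of all genes. The endothelial ligand Dll4 fell by 3.43. The endothelial receptor Notch4 fell as well, with a difference of -2.21, as did the glycosyltransferase Mfng (-2.06), the presenilin Psen2 (-1.83) and the ligand Dll1 (-1.20). The ligands Jag1 and Jag2 moved the other way. Jag2 stood at 6.27, 6.70 and 6.61 in the livers and 8.02, 7.65 and 8.18 in the lines, with no overlap and a rise of 1.42 (SE 0.186, adjusted p = 0.00368), and Jag1 rose by 2.30. The count of falls was 5 without WT liver 2 or WT liver 3. Of 21 Notch targets and nuclear partners, 3 rose and 1 fell (median 0.08), against 17.6% and 11.1% of all genes. Sox9, a progenitor and bile duct factor, and the cyclin Ccnd1 rose, whereas the repressor Hes1 measured 10.40, 10.29 and 10.26 in the livers and 9.86, 9.70 and 10.10 in the lines (difference -0.43, adjusted p = 0.0531, past the threshold with 75th percentile scaling, with all 9 arrays in one fit, with array weights, with repeated quantile normalization or without AS line 3). The gene that fell was Dtx3l, a ubiquitin ligase that interferon also induces, and falls numbered 4 with 75th percentile scaling, with all 9 arrays in one fit or with array weights and 2 with repeated quantile normalization, with the replicate block or without AS line 3 or WT liver 1.

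Endothelial genes fell strongly, and the defining markers Cdh5, Pecam1 and Kdr lay at or near background in all 3. Cdh5, the cadherin of endothelial junctions, measured 12.91, 12.72 and 12.73 in the WT livers and 5.47, 5.66 and 5.45 in the AS lines. Pecam1, the adhesion molecule CD31, measured 11.54, 11.51 and 11.60 against 5.65, 5.81 and 5.39. Kdr, the main VEGF receptor, measured 12.49, 12.46 and 12.56 against 5.89, 5.65 and 5.45. In each of these genes the 3 lines lay close together and more than 5 log2 units below the lowest liver. The differences were -7.26 for Cdh5 (SE 0.104, adjusted p = 6.17e-06), -5.93 for Pecam1 and -6.84 for Kdr, and the fall of Cdh5 corresponds to a 154-fold lower value. A fold against a value near background understates the true one. All 30 of 30 measured pan-endothelial genes fell, against 11.1% of all genes, with a median of -4.79 against 0.02. The list averaged 11.15, 11.09 and 11.08 in the livers and 6.18, 6.22 and 6.17 in the lines, and 7 of its 30 genes lay in all 3 lines under a background bound set at the 95th percentile of olfactory and vomeronasal receptor genes. Between 29 and 30 members fell in every alternative, and the only member to lose its call in any was Esm1 (lost with all 9 arrays in one fit, with array weights, with repeated quantile normalization or without AS line 1, AS line 3 or any 1 of the WT livers).

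Receptors of endothelium fell too, and so did some of its transcription factors. The angiopoietin receptors Tek and Tie1 differed by -6.62 and -5.09, the VEGF receptor Flt1 by -4.54 and the lymphatic receptor Flt4 by -3.19. Erg, an ETS factor that maintains endothelial identity, measured 10.45, 10.26 and 10.26 in the livers and 6.28, 6.09 and 6.66 in the lines, a difference of -3.98 (SE 0.166, adjusted p = 6.66e-05). Its relative Fli1 differed by -4.16, the SRY-related factors Sox7, Sox17 and Sox18 by -3.38, -2.10 and -2.06, and Klf2, a factor induced by blood flow, by -3.62. Of 23 endothelial transcription factors 14 fell and 1 rose (median -1.42), against 11.1% and 17.6% of all genes. In all 3 lines 1 of them lay under the background bound, and the list averaged 7.39, 7.59 and 7.72 in the lines. The riser was Hhex, a homeobox factor that hepatoblasts and bile ducts also use, at 8.23, 8.45 and 8.68 in the livers and 10.19, 10.03 and 10.25 in the lines. Thus the label of the lines, which names a tumour of endothelial cells, was not borne out by the endothelial markers measured, and the lines are called by their label only.

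Most genes of the sinusoidal endothelium fell. The list averaged 11.78, 11.57 and 11.55 in the livers and 6.55, 7.09 and 6.92 in the lines, and 3 of its 22 genes lay under the background bound in all 3 lines. Dnase1l3, a secreted nuclease, measured 13.23, 13.05 and 13.14 in the livers and 4.77, 4.97 and 5.11 in the lines, a difference of -8.19 (SE 0.118, adjusted p = 6.17e-06). Its values in the lines lay under the background bound, so the size of this and other such falls is limited by the background of each probe set and their order has no meaning. The lectin Clec4g differed by -7.51, the mannose receptor Mrc1 by -7.36, the scavenger receptors Stab2 and Stab1 by -6.70 and -5.35, and the hyaluronan receptor Lyve1 by -6.12. Angiocrine signals to hepatocytes fell as well, namely Bmp2 (difference -6.19), which drives hepcidin, and Wnt2 (-4.11) and Rspo3 (-1.49), which pattern the lobule. Of 22 sinusoidal genes 19 fell and 0 rose (0 at an unadjusted p under 0.05, median -5.85), against 11.1% and 17.6% of all genes. Among 17 arterial, venous and lymphatic genes 10 fell and 1 rose (median -1.20), against 11.1% and 17.6% of all genes. The connexin Gja4 differed by -5.99 and the venular chemokine receptor Ackr1 by -3.21, and the netrin receptor Unc5b rose by 3.55. Rises in this list numbered 2 without AS line 2.

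**Figure D2:**
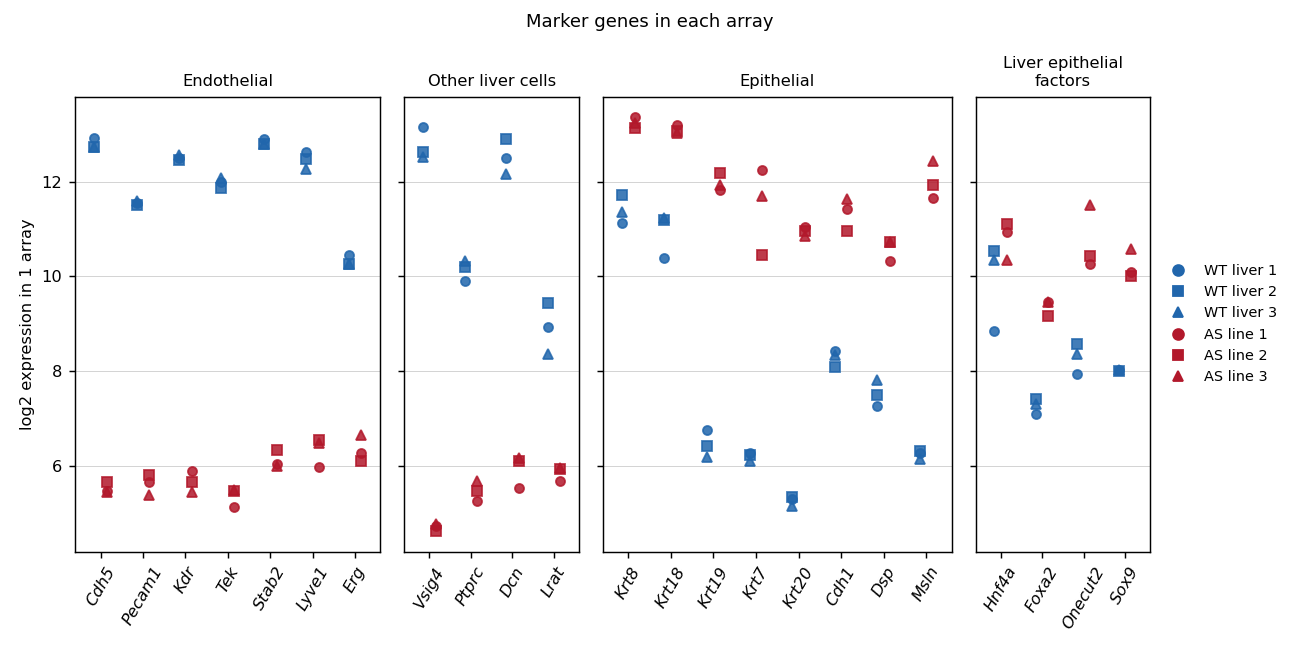
Log2 expression of marker genes in single arrays, with WT livers in blue and AS lines in red and the replicate number shown by the symbol. The 7 endothelial genes and the 4 genes of other liver cells sit below 7 in all lines, whereas keratins, Cdh1, Dsp and Msln sit above 10 in all lines.

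Genes of the other non-parenchymal cells were also low in the lines. Vsig4, a complement receptor of Kupffer cells, the resident macrophages of the liver, measured 13.15, 12.63 and 12.51 in the livers and 4.72, 4.62 and 4.76 in the lines, a difference of -8.06. Of 25 Kupffer cell and macrophage genes 23 fell and 0 rose (median -4.47), against 11.1% and 17.6% of all genes. Rises at an unadjusted p under 0.05 were 0 as well. The genes that fell included the lysozyme Lyz2 (-7.27), the apoptosis inhibitor Cd5l (-7.23) and the growth factor receptor Csf1r (-4.94). So did the complement subunits C1qa, C1qb and C1qc (-5.24, -6.73 and -6.36). All 18 of 18 pan-leukocyte genes fell (median -4.16), against 11.1% of all genes. The phosphatase Ptprc, which marks leukocytes as CD45, stood at 9.90, 10.20 and 10.32 in the livers against 5.25, 5.47 and 5.68 in the lines. Stellate cells, the vitamin A-storing pericytes of the liver, were represented by 23 genes, of which 15 fell (median -1.85), against 11.1% of all genes. Among them the retinol acyltransferase Lrat differed by -3.06, the growth factor Hgf by -5.65, the proteoglycan Dcn by -6.59 and the potassium channel subunits Abcc9 and Kcnj8 by -3.39 and -2.29. Of the stellate genes 0 rose (1 at an unadjusted p under 0.05), against 17.6% of all genes. The count was 1 with all 9 arrays in one fit, with array weights or with dim genes left out. Without AS line 2 or AS line 3 it was 1 as well. In bulk samples fewer cells of a type and less RNA per cell cannot be told apart.

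Lymphocyte genes were dim in the lines, but their calls depended on WT liver 1. The T and NK list averaged 6.50, 8.14 and 8.12 in the livers and 5.52, 5.80 and 5.73 in the lines, so WT liver 1 lay between the other livers and the lines. Of 21 such genes 8 fell and 0 rose (0 at an unadjusted p under 0.05, median -1.88), against 11.1% and 17.6% of all genes. The count of falls was 19 with array weights or without WT liver 1 and 17 with 75th percentile scaling or all 9 arrays in one fit. It was 4 without AS line 1, AS line 2, AS line 3 or WT liver 2 and 3 without WT liver 3. The chemokine Ccl5 fell by 5.09 and the cytotoxic granule protein Nkg7 by a difference of -4.79. Of 17 B and plasma cell genes 5 fell and 1 rose (median -0.99), against 11.1% and 17.6% of all genes. The largest fall was that of the B cell receptor subunit Cd79b, at -2.76. Falls numbered 13 with 75th percentile scaling, 12 without WT liver 1 and 10 with all 9 arrays in one fit or with array weights. The 1 riser of that list was Sdc1, a proteoglycan that epithelial cells also carry, at 1.66 (lost with all 9 arrays in one fit or without AS line 2, AS line 3 or any 1 of the WT livers). Among 14 neutrophil and erythroid genes 4 fell and 0 rose (0 at an unadjusted p under 0.05, median -0.46), against 11.1% and 17.6% of all genes. The count of falls was 10 with 75th percentile scaling and 2 without AS line 2 or WT liver 2.

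**Figure D3:**
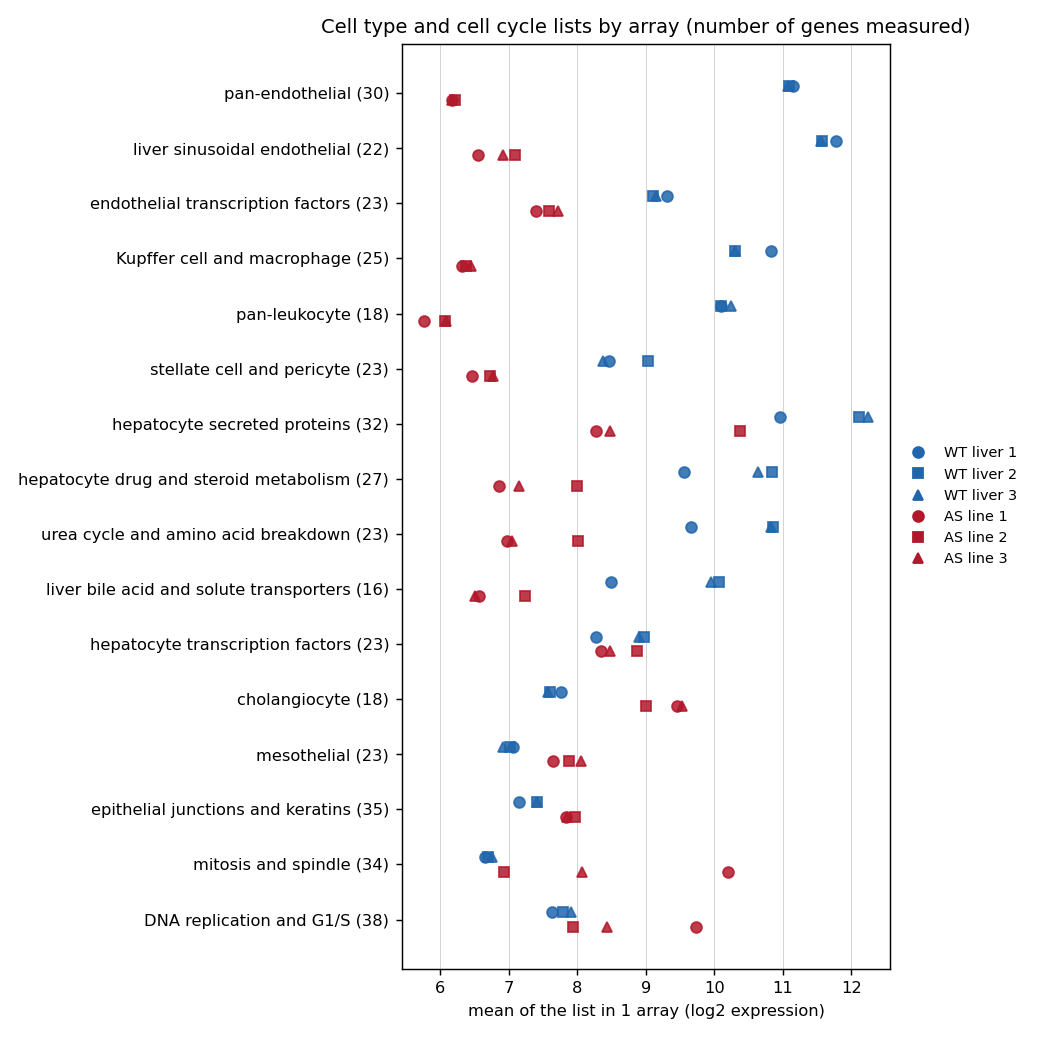
Mean log2 expression of each gene list in each array, with the number of measured genes in brackets, WT livers in blue and AS lines in red. The endothelial, macrophage, pan-leukocyte and stellate lists lie more than 1 log2 unit lower in every line than in any liver, the cholangiocyte list lies more than 1 higher, and the hepatocyte secreted list is higher in AS line 2 than in the other lines while the mitosis list is highest in AS line 1.

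Some plasma proteins of hepatocytes were nearly as bright in the lines as in the livers. Albumin (Alb), the most abundant plasma protein, measured 13.84, 13.87 and 13.96 in the WT livers and 12.31, 13.67 and 12.82 in the AS lines. Its difference of -0.95 (SE 0.343, adjusted p = 0.0932) did not pass, although all lines lay below all livers, and it passed with 75th percentile scaling, with array weights or without AS line 2. Transthyretin (Ttr), a carrier of thyroid hormone, measured 12.77, 13.27 and 13.23 against 12.42, 12.91 and 12.49, and the groups overlapped (adjusted p = 0.132, past the threshold with 75th percentile scaling or with array weights). The iron carrier transferrin (Trf) measured 12.76, 13.46 and 13.53 against 12.53, 13.68 and 13.27, with AS line 2 above every liver and a difference of -0.09 (adjusted p = 0.886). For the lipoprotein component Apob the difference was 0.11 (adjusted p = 0.884). A value that does not pass is not shown to be equal, since the SE of these 4 genes ran from 0.199 to 0.444 log2 units.

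Other plasma proteins were far lower in every line. The apolipoprotein Apoa2 measured 12.74, 13.45 and 13.44 in the livers and 6.70, 7.57 and 6.84 in the lines, a difference of -6.17 (SE 0.307, adjusted p = 0.000125). The iron hormone hepcidin (Hamp) measured 11.55, 12.07 and 11.96 against 5.23, 6.31 and 5.86, and all lines lay more than 5 log2 units below all livers. Plasminogen (Plg), the precursor of the clot-dissolving protease, differed by -5.86, antithrombin (Serpinc1) by -5.53, the growth factor Igf1 by -4.89, the adhesive protein Vtn by -4.48 and the clotting factor F9 by -3.36. Of 32 secreted proteins of hepatocytes 12 fell, 1 rose and 19 did not pass (median -2.81), against 11.1% of all genes lower and 17.6% higher. The count of falls was 21 with array weights, 20 without AS line 2 and 7 without AS line 1, AS line 3, WT liver 2 or WT liver 3. The 1 riser was the copper carrier ceruloplasmin (Cp), at 1.34 (lost with all 9 arrays in one fit or without AS line 2, AS line 3 or any 1 of the WT livers).

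AS line 2 stood apart from the other lines in this list. Its genes averaged 10.97, 12.11 and 12.24 in the livers and 8.27, 10.37 and 8.48 in the lines, with WT liver 1 lowest among the livers. Fetuin A (Ahsg), an inhibitor of calcification, measured 12.64, 13.52 and 13.54 in the livers and 7.11, 13.44 and 7.23 in the lines, so AS line 2 lay within the range of the livers and the others more than 5 log2 units below it. Prothrombin (F2) measured 10.60, 12.11 and 12.32 against 6.66, 12.26 and 6.44, again high in AS line 2 alone. Kininogen (Kng1) measured 12.00, 12.78 and 12.99 against 6.76, 12.38 and 7.25, with the same pattern. None of the 3 passed, with adjusted p of 0.157, 0.214 and 0.125, and without AS line 2 each of them did. Alpha-fetoprotein (Afp), the albumin of the fetal liver, measured 5.75, 5.75 and 5.68 in the livers and 6.38, 10.63 and 5.75 in the lines, so that only AS line 2 was high. Of the 32 genes, 6, 16 and 5 lay within 1 log2 unit of the WT mean in AS lines 1, 2 and 3, and 20, 7 and 19 lay at least 3 below it. The median difference of the list from the WT mean was -3.51, -0.76 and -3.84 in the same lines. These spreads among 3 lines are a description, since the labels define no groups among them.

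**Figure D4:**
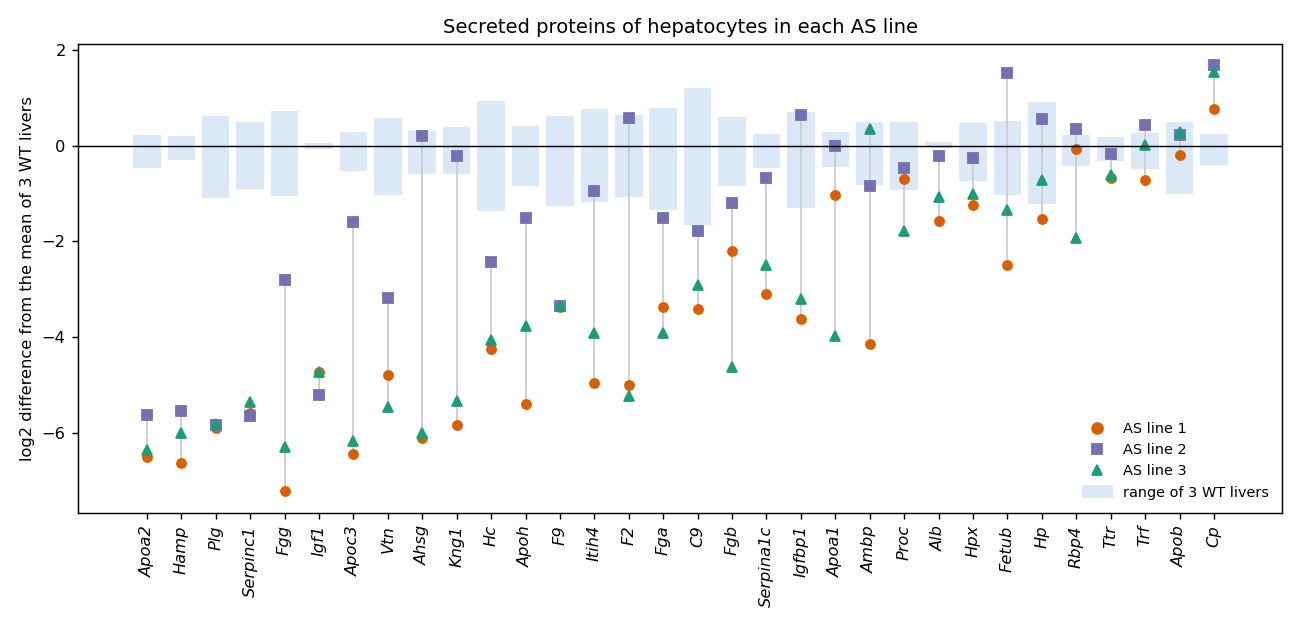
Log2 difference of each AS line from the mean of the 3 WT livers for 32 secreted proteins of hepatocytes, ordered by the mean difference, with the range of the 3 WT livers shaded. All 3 lines lie at least 4 log2 units down for Apoa2, Hamp, Plg, Serpinc1 and Igf1, whereas for Ahsg, Kng1 and F2 only AS line 2 lies inside the shaded range.

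HNF1 is a homeobox factor that binds the upstream region of many plasma protein genes. To show what such regions look like, the 250 bases before the start site are printed for the members of the secreted list of largest difference among those that hold GTTAATNAT, part of its binding site, on either strand. They are Hc (complement factor C5), Fga (the fibrinogen alpha chain) and Igfbp1 (an IGF-binding protein). The sequences are from RefSeq with coordinates on GRCm38.p6, read 5′ to 3′ on the strand of the gene, and capitals mark the HNF1 match.
Hc (chr2:35061413-35061662, minus strand): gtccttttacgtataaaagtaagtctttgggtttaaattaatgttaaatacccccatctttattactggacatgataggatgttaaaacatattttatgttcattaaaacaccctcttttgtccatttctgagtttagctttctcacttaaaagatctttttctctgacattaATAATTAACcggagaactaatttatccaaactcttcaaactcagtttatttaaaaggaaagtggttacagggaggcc
Fga (chr3:83025903-83026152, plus strand): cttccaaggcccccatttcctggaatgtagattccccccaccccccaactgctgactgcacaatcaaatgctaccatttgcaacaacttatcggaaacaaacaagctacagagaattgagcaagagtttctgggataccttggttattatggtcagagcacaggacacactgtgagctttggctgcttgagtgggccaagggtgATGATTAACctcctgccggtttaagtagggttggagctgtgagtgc
Igfbp1 (chr11:7197537-7197786, plus strand): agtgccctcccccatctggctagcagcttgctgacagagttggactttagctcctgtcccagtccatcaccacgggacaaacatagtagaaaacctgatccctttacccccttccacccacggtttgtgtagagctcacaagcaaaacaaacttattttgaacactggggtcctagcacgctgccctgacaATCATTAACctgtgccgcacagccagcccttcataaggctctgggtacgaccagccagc
The match lies at bases -77 to -69 in Hc, -46 to -38 in Fga and -59 to -51 in Igfbp1, counted from the start site. A match was held by 5 of the 25 secreted protein genes with a window (20%), by 107 of 15563 genes in all (0.688%), by 0.838% of the genes that fell by at least 2-fold and by 0.577% of those that rose as much. Hc and Fga fell by differences of -3.58 and -2.93 (Hc lost without AS line 1, AS line 3, WT liver 2 or WT liver 3, Fga lost with all 9 arrays in one fit, with the mean of all probe sets, with the replicate block or without AS line 1, AS line 3, WT liver 2 or WT liver 3). Igfbp1 measured 8.45, 10.45 and 10.35 in the livers and 6.14, 10.40 and 6.55 in the lines, at the liver level in AS line 2 alone, and did not pass (adjusted p = 0.290, past the threshold without AS line 2). A match describes letters and not a bound site.

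Many enzymes of the mature hepatocyte fell. Cyp2e1, the ethanol-oxidising cytochrome P450 of pericentral cells, measured 12.78, 13.46 and 13.36 in the livers and 5.23, 5.58 and 5.46 in the lines, a difference of -7.77 (SE 0.210, adjusted p = 1.78e-05). The P450 enzymes Cyp2c29, Cyp1a2, Cyp2f2 and Cyp4a14 differed by -6.17, -6.08, -5.53 and -5.30, and Cyp7a1, the rate-limiting enzyme of bile acid synthesis, by -4.13. Of 27 genes of drug and steroid metabolism 16 fell and 1 rose (median -3.45), against 11.1% and 17.6% of all genes. Falls numbered 14 to 19 when 1 array was left out. The 1 riser was the epoxide hydrolase Ephx1, at 1.64 (lost without AS line 3 or any 1 of the WT livers). All 3 lines lay under the background bound for 10 of these genes. In AS lines 1, 2 and 3, 5, 6 and 5 of them lay within 1 log2 unit of the WT mean and 0, 5 and 1 at least 1 above it.

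Enzymes of the urea cycle and amino acid breakdown fell in the majority, those of sugar metabolism in part. Cps1, the entry enzyme of the urea cycle, measured 11.11, 12.49 and 12.56 in the livers and 5.56, 8.45 and 5.51 in the lines, with AS line 2 about 3 log2 units above the other lines and still below every liver. The next enzyme Otc differed by -4.19, arginase (Arg1) by -3.96, and the tyrosine and tryptophan degrading enzymes Hpd and Tdo2 by -6.24 and -5.96. Of 23 genes of the urea cycle and amino acid breakdown 15 fell and 0 rose (median -3.91), against 11.1% and 17.6% of all genes. Rises at an unadjusted p under 0.05 were 0 as well. In gluconeogenesis and glycogen storage 4 of 11 fell and 0 rose (0 at an unadjusted p under 0.05, median -2.02). The shares of all genes were again 11.1% and 17.6%. Falls numbered 9 with array weights and 8 with 75th percentile scaling or without AS line 2. They numbered 2 without AS line 1, AS line 3, WT liver 2 or WT liver 3. Pck1, which commits carbon to glucose, differed by -4.51 and the glycogen synthase Gys2 by -3.35.

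Carriers of bile acids fell. The sodium-dependent uptake carrier Slc10a1 measured 11.64, 12.33 and 12.21 in the livers and 5.32, 6.45 and 6.04 in the lines, a difference of -6.12 (SE 0.337, adjusted p = 0.000175). The export pump Abcb11 differed by -4.67, the organic anion carrier Slco1b2 by -4.37 and the bile acid ligase Slc27a5 by -5.07. Of 16 transporters 11 fell and 0 rose (0 at an unadjusted p under 0.05, median -2.30), against 11.1% and 17.6% of all genes. Falls numbered 6 with all 9 arrays in one fit or without AS line 1, AS line 3, WT liver 2 or WT liver 3. Among 20 genes of fatty acid oxidation 1 rose and 3 fell (median -0.01), against 17.6% and 11.1% of all genes. Falls numbered 1 without AS line 1, WT liver 2 or WT liver 3. The thioesterase Acot1 rose by 2.13 and the omega-hydroxylase Cyp4a10 fell by 3.89.

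Transcription factors of hepatocytes moved both ways. Hnf4a, the nuclear receptor that governs the hepatocyte programme, measured 8.84, 10.53 and 10.35 in the livers and 10.95, 11.10 and 10.35 in the lines, so AS line 3 overlapped with the livers and the other lines lay above them. The difference of 0.89 did not pass (adjusted p = 0.244). The forkhead factor Foxa2 measured 7.10, 7.41 and 7.31 against 9.46, 9.16 and 9.46, a rise of 2.09 (SE 0.134, adjusted p = 0.000311) with all lines above all livers. Onecut2, a factor of biliary and hepatic precursors, rose by 2.45 and the endoderm factor Gata6 by 1.98. Cebpa (-1.67), Cebpb (-1.33) and the nuclear receptor Nr5a2 (-3.14) fell, as did Gata4 (-2.84), which sinusoidal endothelium uses as well. Of 23 hepatocyte factors 4 rose, 6 fell and 13 did not pass (median 0.13), against 17.6% of all genes higher and 11.1% lower. In AS lines 1, 2 and 3, 10, 4 and 9 of them lay at least 1 log2 unit below the WT mean and 5, 7 and 4 at least 1 above it.

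Several epithelial genes rose, keratins of simple epithelia foremost. Krt19, a keratin of bile ducts and mesothelium, measured 6.76, 6.42 and 6.19 in the WT livers and 11.82, 12.18 and 11.93 in the AS lines, a 46.0-fold rise (difference 5.52, SE 0.178, adjusted p = 2.75e-05). Krt20, a keratin of gut and urothelium, measured 5.30, 5.35 and 5.15 against 11.04, 10.95 and 10.86. The biliary keratin Krt7 measured 6.27, 6.22 and 6.10 against 12.26, 10.46 and 11.70. In all 3 genes every line lay more than 3 log2 units above every liver. Krt8 and Krt18, the keratin pair of simple epithelia that hepatocytes carry too, rose by 1.85 and 2.17 from bright levels (both lost only with all 9 arrays in one fit). The epithelial cadherin Cdh1 measured 8.43, 8.09 and 8.34 in the livers and 11.43, 10.96 and 11.64 in the lines, a rise of 3.06 (SE 0.201, adjusted p = 0.000335).

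Of 18 cholangiocyte genes 12 rose and 2 fell (median 2.19), against 17.6% and 11.1% of all genes. Besides the keratins, the tetraspanin Tspan8 rose by 5.56, the RNA-binding protein Bicc1 by 4.16, the cilium protein Pkhd1 by 2.66, the stem cell surface protein Prom1 by 2.32 and Sox9 by 2.20. Some bile duct genes were at background in the lines. The adhesion molecule Epcam measured 6.77, 5.84 and 6.00 in the livers and 5.71, 5.56 and 6.02 in the lines. The chloride channel Cftr measured 4.67, 4.43 and 4.47 against 4.92, 4.51 and 4.47. Both lay near the background bound in the lines. The water channel Aqp1, which endothelium also carries, fell by 6.56. Falls in this list numbered 1 with dim genes left out, with the replicate block or without any 1 of the WT livers, and the other gene that fell was the claudin Cldn7 at -0.51 (lost with the replicate block or without any 1 of the WT livers).

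Junction genes rose in part. Desmoplakin (Dsp), which ties keratins to desmosomes, measured 7.26, 7.50 and 7.81 in the livers and 10.32, 10.73 and 10.72 in the lines, a rise of 3.07 (SE 0.189, adjusted p = 0.000264). The desmosomal protein Pkp2 rose by 1.99, the claudin Cldn12 by 1.80 and the epithelial ETS factor Elf3 by 1.42. Of 35 junction genes and further keratins 9 rose and 1 fell (median 0.10), against 17.6% and 11.1% of all genes. In AS lines 1, 2 and 3, 26, 22 and 22 of the 35 lay within 1 log2 unit of the WT mean. Keratins of stratified epithelia were at background in both groups, such as Krt5 at 5.32, 5.28 and 5.32 in the livers and 5.34, 5.32 and 5.36 in the lines. The gap junction protein Gjb2 fell by 2.80 (lost with all 9 arrays in one fit or without AS line 1, AS line 3 or any 1 of the WT livers), and falls in the list numbered 3 with array weights and 0 without AS line 3 or any 1 of the WT livers.

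Mesothelial markers were mixed. Mesothelin (Msln), a surface protein of mesothelium and several carcinomas, measured 6.26, 6.32 and 6.15 in the livers and 11.65, 11.93 and 12.43 in the lines, a 54.1-fold rise. The uroplakin Upk1b measured 5.61, 5.31 and 5.26 against 9.06, 11.89 and 11.51, lowest in AS line 1 and still above every liver. Of 23 mesothelial genes 5 rose and 1 fell (median 0.35, against 17.6% and 11.1% of all genes), with rises at 9 without AS line 1 and 8 with all 9 arrays in one fit or with array weights. Falls numbered 2 with 75th percentile scaling, with all 9 arrays in one fit, with an intensity trend or without AS line 3. The defining factor Wt1 measured 6.60, 6.53 and 6.44 against 6.78, 8.09 and 7.47 (difference 0.92, adjusted p = 0.0898, past the threshold with all 9 arrays in one fit, with array weights or without AS line 1). The uroplakin Upk3b measured 6.70, 6.63 and 6.40 against 7.37, 8.07 and 9.28 (adjusted p = 0.0503, past the threshold with all 9 arrays in one fit, with array weights, with dim genes left out, with an intensity trend or without AS line 1 or AS line 3). The mucin Muc16 measured 4.51, 4.49 and 4.67 against 4.45, 4.51 and 4.60, near background in both groups.

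Regulators of the switch between epithelial and mesenchymal states moved both ways. Zeb1, a repressor of Cdh1, measured 10.51, 10.14 and 10.20 in the livers and 8.61, 8.95 and 8.77 in the lines and fell (-1.51). Its relative Zeb2 measured 9.89, 9.42 and 9.37 against 7.34, 7.75 and 8.07 and fell too (-1.84). All lines lay below all livers in both. The repressor Snai1 fell by 1.24, and the ligand Tgfb1 fell with a difference of -2.10. Tgfb2 rose by 3.35 and the neural cadherin Cdh2, which hepatocytes carry, by 2.74. Of 20 such genes 5 rose and 9 fell (median -0.56, against 17.6% and 11.1% of all genes), and rises numbered 3 with 75th percentile scaling, with repeated quantile normalization or without AS line 1 and 2 without any 1 of the WT livers.

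Matrix and cytoskeleton genes did not share a direction. Vimentin (Vim), a filament of mesenchymal and cultured cells, measured 12.99, 12.96 and 12.88 in the livers and 13.26, 13.06 and 13.47 in the lines. Fibulin 2 (Fbln2) and the epithelial laminin chain Lama5 rose by 4.16 and 2.42, whereas biglycan (Bgn) fell by 6.48 and periostin (Postn) differed by -3.50. Of 29 fibroblast and collagen genes 3 rose and 5 fell (median -0.24, against 17.6% and 11.1% of all genes), with rises at 6 without AS line 1 and 5 with array weights and falls at 8 with 75th percentile scaling and 3 without AS line 1 or WT liver 2. The collagen chain Col1a1 measured 7.98, 7.88 and 7.73 against 7.43, 7.58 and 7.83. Of 20 smooth muscle and actin genes 7 rose and 1 fell (median 0.30, against 17.6% and 11.1% of all genes), among them the tropomyosin Tpm1 at 2.73 and the actin binders Cald1 and Cnn2 at 1.87 and 0.95, and rises numbered 4 without WT liver 1 or WT liver 3 and 3 without WT liver 2. The filament desmin (Des) fell by 1.37.

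Cell cycle genes differed widely among the lines. The mitosis list averaged 6.65, 6.70 and 6.76 in the livers and 10.20, 6.94 and 8.07 in the lines. Cyclin B2 (Ccnb2), which drives entry into mitosis, measured 8.40, 8.55 and 8.75 in the WT livers and 11.99, 8.99 and 10.29 in the AS lines. The mitotic kinase Plk1 measured 6.77, 6.49 and 6.75 against 11.32, 7.50 and 9.71. The spindle motor Kif11 measured 6.62, 6.69 and 6.61 against 10.93, 6.56 and 7.89. AS line 1 was highest in each, AS line 3 intermediate and AS line 2 near the livers. None of the 3 passed (adjusted p = 0.121, 0.0726 and 0.276), and without AS line 2 Ccnb2 and Plk1 did. Of 34 mitosis genes 33 had a positive difference, with a median of 1.62. Of the 34, 2 rose and 0 fell (0 at an unadjusted p under 0.05), against 17.6% and 11.1% of all genes. In 20 of them every line lay above every liver, against 28.3% of all genes. The count of rises was 16 without AS line 2, 7 with array weights, 5 with all 9 arrays in one fit, 4 with dim genes left out and 1 with the replicate block or without AS line 3 or any 1 of the WT livers, and that of falls 1 without AS line 1.

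By line, 34, 3 and 27 of the 34 mitosis genes lay at least 1 log2 unit above the WT mean in AS lines 1, 2 and 3, with medians of 3.48, 0.19 and 1.39. The rises were Anln, a scaffold of the cleavage furrow, at 5.79, 6.23 and 5.99 in the livers and 10.83, 9.42 and 8.93 in the lines (3.72, SE 0.492, adjusted p = 0.00378), and the cytokinesis factor Ect2 at 2.83 (lost with the replicate block or without AS line 3 or any 1 of the WT livers). Of 38 genes of DNA replication and the G1/S step 7 rose and 0 fell (0 at an unadjusted p under 0.05, median 0.75), against 17.6% and 11.1% of all genes. Rises numbered 11 with array weights or without AS line 2, 4 with the replicate block and 3 without any 1 of the WT livers. Falls numbered 1 without AS line 1. Rrm2, which makes deoxynucleotides, measured 6.50, 7.48 and 7.49 in the livers and 11.55, 11.23 and 10.52 in the lines, high in all 3, and the cyclins Ccnd1 and Ccnd2 rose by 1.50 and 1.22.

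**Figure D5:**
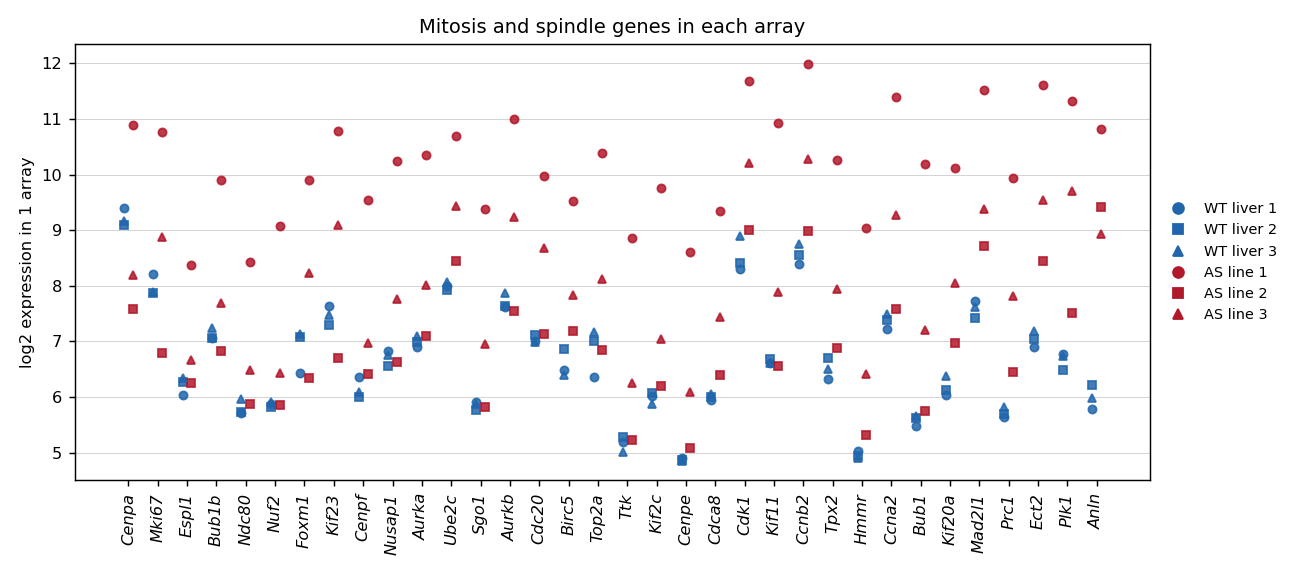
Log2 expression of 34 mitosis and spindle genes in each array, ordered by their mean difference, with WT livers in blue and AS lines in red. AS line 1 (circles) lies at the top for every gene, whereas AS line 2 (squares) lies near the livers for most, with Anln and Ect2 among the exceptions.

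Many mitosis genes share a start region with CCAAT boxes, which the factor NF-Y binds, and a CHR element (TTTGAA), bound by complexes that repress them outside of division. The 250 bases before the start site are shown for the 3 members with both motifs and the largest difference, again from RefSeq on GRCm38.p6, with capitals on each CCAAT and TTTGAA match of either strand.
Ect2 (chr3:27153879-27154128, minus strand): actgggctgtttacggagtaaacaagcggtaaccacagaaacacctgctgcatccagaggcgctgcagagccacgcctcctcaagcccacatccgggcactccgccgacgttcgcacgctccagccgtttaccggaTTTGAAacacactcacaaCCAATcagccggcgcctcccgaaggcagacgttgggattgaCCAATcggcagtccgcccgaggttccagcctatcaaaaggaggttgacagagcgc
Ccnb2 (chr9:70421555-70421804, minus strand): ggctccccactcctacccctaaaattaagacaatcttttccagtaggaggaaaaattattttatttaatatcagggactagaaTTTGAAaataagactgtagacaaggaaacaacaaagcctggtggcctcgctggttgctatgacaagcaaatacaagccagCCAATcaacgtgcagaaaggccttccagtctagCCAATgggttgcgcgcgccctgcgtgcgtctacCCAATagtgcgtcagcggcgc
Kif11 (chr19:37376132-37376381, plus strand): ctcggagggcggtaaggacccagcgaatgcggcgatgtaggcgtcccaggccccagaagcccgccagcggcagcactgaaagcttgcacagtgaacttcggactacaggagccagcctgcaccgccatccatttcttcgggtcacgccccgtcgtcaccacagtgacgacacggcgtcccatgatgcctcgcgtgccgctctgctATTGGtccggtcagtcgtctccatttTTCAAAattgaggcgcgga
Ccnb2 held CCAAT matches at -87 to -83, -54 to -50 and -21 to -17 and a CHR match at -167 to -162, Ect2 held CCAAT matches at -96 to -92 and -55 to -51 and a CHR match at -114 to -109, and Kif11 held 1 of each, at -45 to -41 and -19 to -14. CCAAT was found in 21 of 29 mitosis genes with a window (72.4%), against 35.5% of all 15563 windows, and TTTGAA in 10 of 29 (34.5%) against 13.7%. Both motifs are short and common. Among genes that rose by at least 2-fold, CCAAT was found in 35.4% and TTTGAA in 11.3%, near the shares of all genes. The ETS motif CCGGAAGT was held by 4.08% of all windows, 6.03% of those of genes that rose and 1.76% of those that fell by at least 2-fold. In the same order, the TEAD motif GGAATG was held by 11.4%, 9.87% and 11.1% and the AP-1 motif TGANTCA by 6.09%, 4.17% and 5.86%. For the HNF4 motif CAAAGTCCA the shares were 0.398%, 0.385% and 1.09%, and for the C/EBP motif TTGCGCAA 0.199%, 0.128% and 0.419%.

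Inhibitors of the cell cycle and targets of p53 were partly higher. Phlda3, a p53 target that restrains Akt, measured 7.67, 8.01 and 7.62 in the livers and 10.43, 11.07 and 10.90 in the lines, a rise of 3.03 (SE 0.203, adjusted p = 0.000362). The p53 targets Zmat3, Ccng1, Eda2r, Tnfrsf10b and Aen rose by 2.52, 1.94, 1.57, 1.38 and 0.99, and the CDK inhibitor Cdkn2b by 2.25. The death receptor Fas fell by 3.66. Mdm2, which p53 induces and which degrades it, measured 10.07, 9.74 and 9.60 against 9.76, 10.21 and 9.93, and the groups overlapped. Of 22 genes 7 rose and 4 fell (median 0.27, against 17.6% and 11.1% of all genes), and falls numbered 2 without AS line 3 and 1 with the replicate block or without any 1 of the WT livers.

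Among growth factor receptors and signal genes 9 of 36 rose and 7 fell (median 0.05), against 17.6% and 11.1% of all genes, with rises at 4 without WT liver 2 or WT liver 3. The receptor kinases Fgfr4, Epha2 and Igf1r rose by 1.83, 1.59 and 1.13 and the ligand Pdgfb by 1.40. Kit, a receptor of endothelial and blood precursor cells, fell by 3.81. The receptor Fgfr1 (-2.01) and the endothelial phosphatase Ptprb (-4.29) fell as well. The oncogene Myc measured 11.04, 11.29 and 11.24 in the livers and 11.08, 11.23 and 11.35 in the lines (difference 0.03, adjusted p = 0.873). Of 18 genes of the VEGF and angiopoietin system 9 fell and 2 rose (median -1.59), against 11.1% and 17.6% of all genes. The falls were mostly receptors, and the risers were the ligands Vegfa and Vegfb at 1.47 and 1.16, neither of which kept its call without any 1 of the WT livers. Their number was 4 with all 9 arrays in one fit or with array weights, 1 with repeated quantile normalization or without AS line 1 or AS line 3 and 0 without any 1 of the WT livers.

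Targets of YAP and TEAD, which respond to cell shape and density, included more rises than falls. Ccn2, a matrix-associated growth regulator, measured 10.40, 10.12 and 9.36 in the livers and 12.62, 12.87 and 13.38 in the lines, a rise of 3.00 (SE 0.327, adjusted p = 0.00200) with no overlap. The adaptor Ajuba rose by 2.81, tissue factor (F3) by 3.07, the angiomotin Amotl2 by 1.55 and the factor Tead1 itself by 2.14. Ccn1, a second classical target, measured 11.38, 11.30 and 11.02 against 11.51, 12.03 and 11.47 (adjusted p = 0.150), and Yap1 differed by 0.44 (adjusted p = 0.0872, past the threshold with all 9 arrays in one fit). Of 26 genes 11 rose and 5 fell (median 1.34), against 17.6% and 11.1% of all genes. Falls numbered 3 without any 1 of the WT livers.

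Genes of amino acid supply were among the strongest rises. Psat1, the transaminase of serine synthesis, measured 6.00, 6.34 and 6.48 in the livers and 11.84, 11.41 and 10.69 in the lines, a 32.8-fold rise. Phgdh, the first enzyme of that route, measured 5.90, 6.53 and 6.65 against 11.55, 10.87 and 10.72. Asparagine synthetase (Asns) measured 7.57, 8.09 and 8.01 against 12.64, 12.63 and 11.71. In all 3 genes the lines lay more than 3 log2 units above the livers, with AS line 3 lowest among the lines. The differences were 5.04 (SE 0.315, adjusted p = 0.000277), 4.69 and 4.44. Psph, which completes serine synthesis, rose by 2.73, the folate enzyme Mthfd2 by 2.96, the proline synthesis enzyme Aldh18a1 by 2.80 and the cystine carrier Slc7a11 by 3.86. Of 20 ATF4 targets and serine synthesis genes 10 rose and 1 fell (median 1.75), against 17.6% and 11.1% of all genes. The fall was that of the mTOR inhibitor Ddit4 (lost without AS line 3, WT liver 2 or WT liver 3). Atf4 itself, which is regulated mainly in translation, measured 9.98, 10.09 and 10.10 against 10.11, 10.33 and 9.82.

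Genes of the antioxidant factor NRF2 rose in part. Gclc and Gclm, which together make the precursor of glutathione, rose by 2.26 and 1.24, the glutathione transferases Gsta4 and Gstp1 by 3.28 and 1.49, and Me1, Pgd and Tkt, which supply NADPH and pentoses, by 2.58, 1.23 and 1.19. The quinone reductase Nqo1, a classical target, measured 6.65, 6.95 and 7.09 in the livers and 7.20, 5.88 and 5.72 in the lines, and the groups overlapped (past the threshold with array weights or without AS line 1). The heme oxygenase Hmox1, which Kupffer cells carry in quantity, fell by 2.59. Of 20 genes 10 rose and 1 fell (median 0.83), against 17.6% and 11.1% of all genes. Falls numbered 2 with array weights or without AS line 1.

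Differences in energy metabolism were smaller. Of 18 glycolysis genes 7 rose and 3 fell (median 0.55), against 17.6% and 11.1% of all genes. Pkm, the pyruvate kinase of growing tissues, measured 10.56, 10.73 and 10.72 in the livers and 12.17, 12.07 and 11.72 in the lines (difference 1.32), Pgam1 rose by 1.55, Pfkm by 1.54 and Aldoa by 1.27. The regulator Pfkfb3 and the glucose carrier Slc2a3 fell, with differences of -2.60 and -1.51. Rises numbered 4 without WT liver 3 and falls 5 without AS line 2. All 27 of 27 respiratory chain subunits had a positive difference and 11 rose (median 0.59), where 17.6% of all genes rose. The largest rise was that of Cox7a1 at 1.94, and 24 subunits were positive with 75th percentile scaling. Rises numbered 7 with 75th percentile scaling or without WT liver 1, 6 with the replicate block or without WT liver 3 and 5 without WT liver 2. Among 20 genes of cholesterol and fatty acid synthesis 3 rose and 0 fell (0 at an unadjusted p under 0.05, median 0.74), where 17.6% of all genes rose, and the count of rises was 6 without AS line 3 and 1 with the replicate block or without WT liver 2. Of 21 ribosomal proteins 4 rose and 0 fell (0 at an unadjusted p under 0.05, median 0.32), and of 25 proteasome subunits 7 rose and 3 fell (median 0.48), where 17.6% of all genes rose and 11.1% fell. Rises numbered 7 with all 9 arrays in one fit, 2 without AS line 2, WT liver 1 or WT liver 2, 1 with the replicate block or without WT liver 3 and 0 with 75th percentile scaling for ribosomal proteins. For the proteasome they numbered 12 with all 9 arrays in one fit, 4 with repeated quantile normalization, 2 without AS line 1, AS line 2 or WT liver 1, 1 with 75th percentile scaling, with the replicate block or without WT liver 2 and 0 without WT liver 3. The proteasome genes that fell were Psmb8, Psmb9 and Psmb10, the interferon-inducible subunits, at -2.31, -2.22 and -1.30 (Psmb8 lost without AS line 3 or any 1 of the WT livers).

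Among the largest rises was that of S100a6, a calcium-binding protein of growing cells, at 5.85, 6.98 and 6.87 in the livers and 12.55, 12.04 and 12.48 in the lines (5.79, SE 0.338, adjusted p = 0.000218), which is a 55.5-fold higher level. Its relative S100a11 rose by 1.73 from a bright level. Annexins, which bind membranes with calcium, rose too: Anxa1 measured 8.01, 8.24 and 8.23 against 11.91, 12.40 and 12.12 and rose by 3.98, and Anxa2, Anxa3, Anxa4 and Anxa13 rose by 2.01, 2.87, 2.92 and 4.24. Of 25 S100 proteins, annexins and galectins 11 rose and 0 fell (median 0.44), against 17.6% and 11.1% of all genes. Falls were 0 at an unadjusted p under 0.05 as well and numbered 1 with array weights. S100a4, a member linked to mobile cells, measured 6.14, 7.05 and 7.43 against 6.95, 5.60 and 5.69, and the groups overlapped.

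Among the 15 largest rises that the naming rule takes were also Sprr1a, an envelope protein of stressed epithelia (5.71), the prohormone-processing carboxypeptidase Cpe (5.62), Elmod1 (5.28), the guidance ligand Sema3c (5.14), the peptide gene Uts2b (4.71) and Peg3. Peg3, a paternally expressed imprinted gene for a zinc finger protein, measured 6.83, 6.50 and 6.16 in the livers and 12.28, 11.54 and 12.67 in the lines, a rise of 5.67 with no overlap. Other imprinted genes moved both ways. Phlda2 and Igf2r, which restrain growth, rose by 3.24 and 1.85, and Airn, the antisense transcript that overlaps Igf2r and cannot be told apart from it unless the probes mark strand, by 2.84. Mest and Plagl1 fell, with differences of -4.06 and -2.51. Of 20 imprinted genes 5 rose and 3 fell (median 0.14, against 17.6% and 11.1% of all genes). The growth factor Igf2 measured 6.59, 6.59 and 6.59 against 6.08, 7.12 and 7.97.

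Integrin chains moved both ways. Itga3, a laminin receptor of epithelia, rose by 4.74 (SE 0.150, adjusted p = 2.72e-05). The collagen receptor chain Itga2 measured 6.85, 7.21 and 6.93 in the livers and 11.32, 10.08 and 9.60 in the lines, with no overlap and a rise of 3.33. The vitronectin receptor chain Itgav rose by 1.36, whereas Itga9 fell by 5.93. The leukocyte chain Itga4 (-3.30) and the fibronectin receptor chain Itga5 (-1.54) fell as well. The plasminogen activator Plat rose by 3.98 and the protease inhibitors Timp1 and Timp2 by 2.87 and 2.40, and the protease Mmp9 fell by 1.77. Of 30 genes 7 rose and 7 fell (median -0.01), against 17.6% and 11.1% of all genes, and falls numbered 4 without any 1 of the WT livers.

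Immediate early genes, which switch on within minutes of stimulation or tissue handling, were very bright in the livers. Fosb measured 12.78, 12.08 and 11.70 in the livers and 6.26, 6.57 and 6.78 in the lines, a difference of -5.65 (SE 0.302, adjusted p = 0.000162). Its partner Jun measured 12.43, 11.86 and 11.86 against 8.09, 9.11 and 9.32. The zinc finger factor Egr1 measured 12.66, 12.09 and 12.05 against 8.70, 9.81 and 9.94. Every line lay below every liver in all 3, with WT liver 1 highest. Of 21 such genes 17 fell and 1 rose (median -2.02), against 11.1% and 17.6% of all genes. The riser was Fosl1, at 1.27 (lost with array weights, with repeated quantile normalization, with the replicate block or without AS line 1, AS line 3 or any 1 of the WT livers). The part of tissue collection in these values was not tested.

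Interferon-stimulated genes were lower in the lines, and poly(I:C), which the mice had received, induces interferon. Mice of both groups had received it, and the labels give no time between the injections and collection. The part of poly(I:C) in these values was not tested. The chemokine Cxcl10 measured 13.99, 13.40 and 13.34 in the livers and 8.20, 7.83 and 7.10 in the lines, a difference of -5.87 (SE 0.328, adjusted p = 0.000188). Mx2, an antiviral GTPase, measured 9.18, 8.40 and 8.57 against 4.71, 5.36 and 4.93. The interferon regulator Irf7 measured 11.13, 10.83 and 10.66 against 5.80, 8.50 and 6.73. In both genes every line lay below every liver. The Mx2 values of all 3 lines lay under the background bound, so their order has no meaning. For Irf7 AS line 2 was highest among the lines. Of 25 such genes 21 fell and 0 rose (0 at an unadjusted p under 0.05, median -2.22), against 11.1% and 17.6% of all genes. Falls numbered 13 without WT liver 2 or WT liver 3. Of 15 genes of antigen presentation 14 fell and 0 rose (0 at an unadjusted p under 0.05, median -3.77). The shares of all genes were the same 11.1% and 17.6%. The class II chain H2-Aa measured 12.65, 12.38 and 12.43 against 4.88, 5.20 and 5.02, and its chaperone Cd74 measured 12.88, 12.42 and 12.52 against 5.20, 5.24 and 5.32. Both were at background in all lines. The class I peptide transporter Tap1 differed by -2.96. Leukocyte markers were lower in the same arrays (median -4.16), and their part in these falls was not tested.

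Among inflammatory mediators falls outnumbered rises. Il1a measured 12.96, 11.90 and 11.81 in the livers and 4.86, 4.99 and 5.09 in the lines, Tnf differed by -3.76, Cxcl2 by -6.03 and the NF-kappaB inhibitor Nfkbia by -3.06. Ccl3, a macrophage chemokine, was among the 15 largest falls (-7.49), as were Wfdc17 (-8.14), the receptor Adgrl4 of endothelium (-7.61), the liver carboxylesterase Ces1c (-7.55) and the granule proteoglycan Srgn (-7.35). Ccl20, a chemokine that epithelial cells release, stood at 6.29, 5.93 and 6.01 in the livers and 10.71, 11.26 and 9.58 in the lines, a rise of 4.44 (SE 0.429, adjusted p = 0.00131). Of 29 chemokines and cytokines 14 fell and 3 rose (median -0.75), against 11.1% and 17.6% of all genes. The count of rises was 1 without any 1 of the WT livers. Of 17 clock genes 1 rose and 1 fell (median -0.14), against 17.6% and 11.1% of all genes. Rises in this list numbered 2 with array weights, with the replicate block or without AS line 1, and falls 3 with 75th percentile scaling, with array weights or without AS line 2, 2 with all 9 arrays in one fit and 0 without WT liver 1 or WT liver 2. Markers of pancreas, muscle, fat and nerve served as a check for other tissues. Of 19 such genes 0 rose (0 at an unadjusted p under 0.05) and 1 fell (median -0.02), against 17.6% and 11.1% of all genes. The gene that fell was the synaptic protein Syp ( lost with dim genes left out, with repeated quantile normalization, with the replicate block or without AS line 1, AS line 2, AS line 3 or any 1 of the WT livers).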

How the data were processed

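The arrays were Affymetrix whole-transcript mouse arrays read with biotin-labelled total RNA, per the labels' protocols. The values used were the deposited log2 expression values of the authors, made with RMA in the package oligo per the submitters' processing notes, with versions not given in the sources used here. RMA makes the distribution of all arrays alike, so a shift of the whole transcriptome cannot be seen. The files used here held 35556 probe sets and no detection calls. Of these, 21789 were annotated with 1 gene, 1621 with several and 12146 with none, and only the first kind was used. For each of the 19938 genes the probe set brightest on average across the 9 arrays was kept (999 genes had more than 1).

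The 3 AS lines were compared with the 3 WT livers in limma 3.58.1 (R 4.3.3, lmFit and eBayes on 6 arrays), and p-values were adjusted over all genes by Benjamini-Hochberg, with calls at 0.05. The script was checked on simulated data. The background bound was, per array, the 95th percentile of 1194 olfactory and vomeronasal receptor genes (5.74 to 6.36). Alternatives changed the scaling, fit, gene filter, probe set rule and arrays, 14 in all. The genes named were Notch1, the 15 largest rises and falls with groups that did not overlap (leaving out predicted genes, small RNAs, receptor and immunoglobulin segments and histones), marker genes of each list, the 4 members of each list with the largest difference and the 10 genes of largest SD among the lines. The text names 62 further genes that were chosen after their values were seen. The comparison and the gene lists were chosen with earlier results of these data known. Start regions were read from RefSeq (GRCm38.p6) for 15563 genes matched by gene identifier, the first listed where a gene had several. Genes on chromosome 18 were left out when the regions to print were chosen. Figures were drawn with matplotlib 3.10.9.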

Additional observations from a re-analysis of the deposited data

How the results depend on the processing

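More genes were higher than lower in the lines as deposited and in 13 of the 14 alternatives, 75th percentile scaling being the exception, and the number of calls varied. Leaving out 1 array gave 3397 to 5435 genes past the threshold, with 1931 to 3486 higher and 1466 to 2099 lower. The counts fell most without a WT liver (2302, 1931 and 2046 higher without WT liver 1, 2 or 3), with fewer arrays in the fit, and the cause was not tested further. Under the other alternatives the numbers higher and lower were 2476 and 2884 with 75th percentile scaling, 4298 and 2497 with all 9 arrays in one fit, 4240 and 2670 with array weights, 3719 and 2136 once dim genes were removed, 3294 and 2244 with an intensity trend and robust moderation, 3503 and 2200 with the mean of all probe sets and 3217 and 2260 with repeated quantile normalization. With the replicate number as a block they were 2584 and 1910. Deviations of same-numbered arrays correlated at 0.04, 0.17 and -0.16, and those of the other pairs of a liver and a line at -0.17 to 0.15. With 3 arrays per group these values cannot show if the numbers pair the samples. In all alternatives that tested them, 1676 higher and 1378 lower genes kept their call and direction. Array weights were lowest for AS line 1 (0.331) and WT liver 1 (0.432). Genes under the background bound in all 3 lines (446 of those that fell) or all 3 livers (262 of those that rose) may have a difference that is too small by an unknown amount. Of the genes that fell, 96 lay under the bound in all 3 livers, and of those that rose, 17 did in all 3 lines. In these calls even the higher group was at background, so they do not show that the gene was expressed.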

Other observations

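The 3 AS lines differed from one another in many genes. A value at least 2 log2 units above both other lines was found for 132 genes in AS line 1, 116 in AS line 2 and 25 in AS line 3, and one as far below both for 39, 35 and 21. The genes of largest SD among the lines included Cd36, a fatty acid and scavenger receptor of sinusoidal endothelium and fat cells, at 5.08, 12.17 and 9.12 against 12.16, 12.29 and 12.07 in the WT livers. Vsig1, an adhesion molecule of stomach epithelium, stood at 10.56, 4.68 and 5.26, Eya1, a developmental cofactor, at 10.26, 5.25 and 5.43 and Gatm, which makes the precursor of creatine, at 10.54, 5.61 and 5.27, so that each was high in AS line 1 alone. Cltrn (collectrin), a protein of kidney and pancreas, stood at 6.06, 4.48 and 10.14, high in AS line 3, and the taurine synthesis enzyme Cdo1 at 5.64, 11.20 and 5.84, high in AS line 2. Ppbp and Igf2bp3, chosen after their values were seen, stood at 9.95, 6.05 and 6.18 and 9.27, 5.65 and 5.65. With 1 array per line these are values without replicates, and the cause was not tested.

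Over genes above the background bound in all 6 arrays, the median difference of a line from the WT mean was 0.19, 0.23 and 0.21 in AS lines 1, 2 and 3. The chromosomes given here are those with the highest or the lowest median in 1 of the lines, and the values follow the same order. Chromosomes 19 and 12 were highest and lowest in AS line 1, at 0.61, 0.28 and 0.23 and at -0.15, 0.18 and 0.14. Chromosomes 3 and X were highest and lowest in AS line 2, at 0.44, 0.61 and 0.27 and at 0.47, -0.11 and 0.28. Chromosomes X and 1 were highest and lowest in AS line 3, with chromosome 1 at 0.26, 0.41 and 0.13. Copy number was not measured here.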
